A study of Arabidopsis thaliana with 24 samples.

Results

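The double mutant heso1-4/urt1-1 of Arabidopsis thaliana was compared with the single mutant urt1-1 in inflorescence small RNA. The authors' deposited table gives each mutant line as a log2 fold change over a reference line that it does not name and that was taken to be Col-0, the wild type. Loci were chosen by being listed in the table for heso1-4/urt1-1, for urt1-1, or for both: 570 of the 14888 loci of the whole table. Of these, 127 were listed in both lines, 278 in heso1-4/urt1-1 alone and 165 in urt1-1 alone. The labels give 3 libraries of Col-0, 3 of urt1-1 and 3 of heso1-4/urt1-1, all in the Col-0 background and described as biological replicates. Values of the triple mutant rrp4-2/urt1-1/heso1-4, also 3 libraries by the labels, are given beside them at some loci. The labels also hold 3 libraries of the single mutant heso1-4, but no line of the deposited table carries that name. Both mutants carry urt1-1, so the comparison asks what the added heso1 mutation changed in plants that already carry urt1-1. The study's design text writes heso1-1 for the double mutant where the sample labels write heso1-4, and the labels' name is used here. The kind of lesion of each allele is not given in the sources used here.

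URT1 and HESO1 are terminal nucleotidyl transferases that add uridines to RNA 3' ends. URT1 is known for tailing deadenylated mRNAs in the cytoplasm, and HESO1 for tailing microRNAs that lack 3' methylation and the 5' fragments left by microRNA-guided cleavage. Loss of tailing or of mRNA decay can feed mRNAs into siRNA production by RNA-dependent RNA polymerases and Dicers. The values hold no read lengths, so siRNAs, microRNAs and fragments of longer RNAs are not told apart, and a value for a gene is small RNA mapped to it, not its mRNA.

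The sequences shown first are the mature microRNAs whose genes gave higher values in both lines, from RefSeq's TAIR10.1 annotation, with the seed (bases 2 to 8) in capitals. All 10 microRNA genes listed in both lines had a mature sequence there. They fall into families by shared seed: MIR169d, MIR169f and MIR169g encode 1 and the same mature sequence, which MIR169e, listed in heso1-4/urt1-1 alone, also encodes, and MIR397A and MIR397B differ in the body of the microRNA outside the seed.
ath-miR169d: tGAGCCAAggatgacttgccg
ath-miR397a: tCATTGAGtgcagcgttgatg
ath-miR397b: tCATTGAGtgcatcgttgatg
ath-miR398a-3p: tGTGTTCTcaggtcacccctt
ath-miR408-3p: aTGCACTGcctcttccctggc
ath-miR857: tTTTGTATgttgaaggtgtat
ath-miR5657: tGGACAAGgttagatttggtg
ath-miR837-5p: aTCAGTTTcttgttcgtttca

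miR393 guides cleavage of the mRNAs of the auxin receptors, and its targets AFB2, AFB3 and AT3G23690 were among the loci listed in both lines. Their sites are shown because pairing with miR393 is what these 3 loci share. Capitals mark bases that pair with ath-miR393a-5p in the Watson-Crick sense, and lower case marks mismatches and G-U pairs, while in the microRNA itself capitals mark the seed. AFB2 and AFB3 carry the same 21-base site with 2 mismatches.
ath-miR393a-5p: tCCAAAGGgatcgcattgatcc
AFB2 and AFB3 site: aAaCAATGCGATCCCTTTGGA
AT3G23690 site: GgTCAgaGCGATCCCTTTGGc
The AFB3 site lies at chr1:4369085-4369105 on the minus strand, the AFB2 site at chr3:9870238-9870258 on the plus strand and the AT3G23690 site at chr3:8530587-8530607 on the minus strand, all within coding sequence of TAIR10.1. The table itself holds no coordinates.

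Listing means a deposited adjusted p under 0.05 in DESeq2, the count model the authors used. heso1-4/urt1-1 had 405 listed loci, 0.58% of 69793 tested, and urt1-1 had 292, 0.431% of 67717 tested. By direction, 237 were higher (0.34%) and 168 lower (0.241%) than Col-0 in heso1-4/urt1-1, against 217 higher (0.32%) and 75 lower (0.111%) in urt1-1. Dividing each adjusted p by its raw p gave these tested numbers. The deposited listing holds 64.1% of the ranks up to the last one listed in heso1-4/urt1-1 and 56.8% in urt1-1, so absence from a list says little about a locus. Values of single libraries were not used here, so depth per library is unknown and the spread between libraries enters through the deposited p-values alone. Values follow as estimate ± standard error (SE), worked back from each log2 fold change and its p, over 3 libraries a line by the labels.

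The 127 loci listed in both lines made up 31.4% of the heso1-4/urt1-1 list and 43.5% of the urt1-1 list. Both lines are set against the same Col-0 libraries, so shared directions carry no weight here, and the difference between the lines is what was tested. The difference of the log2 fold changes, heso1-4/urt1-1 minus urt1-1, had a median of 0.08 with quartiles of -0.18 and 0.49. It was below 0.5 in size at 86 loci and above 1 at 14. The median SE of a difference was 0.53 with the errors of the 2 lines taken as independent and 0.37 with a correlation of 0.5, the value that shared Col-0 libraries of equal spread would give. A 95% interval within ±1 was reached at 39 loci with independent errors and at 55 with the correlation. At the other loci a change of more than 2-fold was not excluded. A locus that the added mutation moved back to the Col-0 level would not be among these 127.

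**Figure D1:**
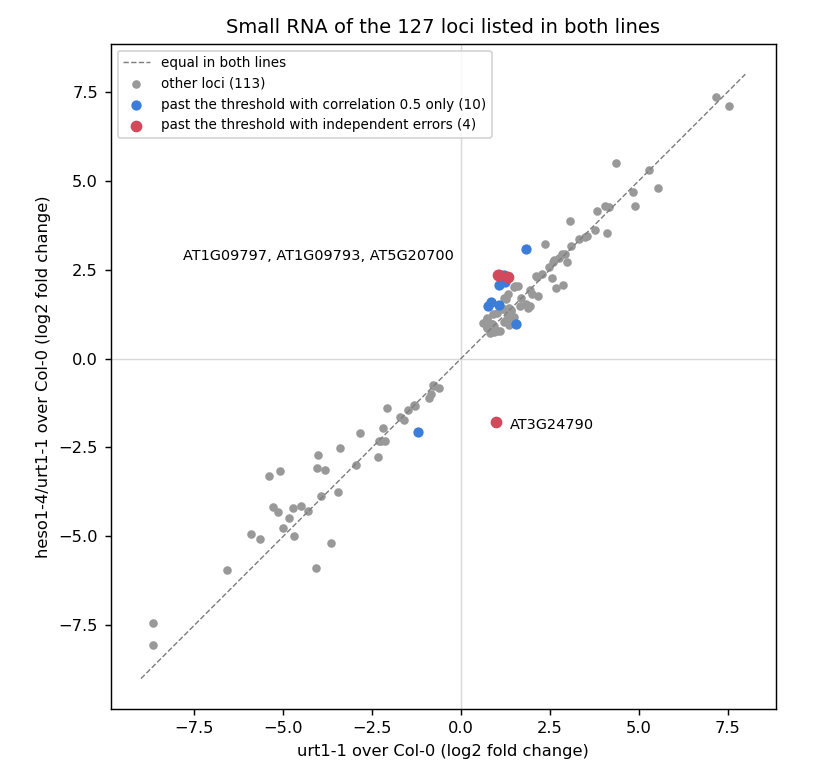
Log2 fold change over Col-0 in urt1-1 (x axis) and in heso1-4/urt1-1 (y axis) for the 127 loci listed in both lines, 1 point a locus. Most points lie near the dashed line of equal values, AT3G24790 lies in the lower right quadrant at 0.98 and -1.78, and 3 loci above the line near 1.1 to 1.3 on the x axis are the other loci past the threshold with independent errors.

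Small RNA differed between the lines at 4 of the 127 loci (3.15%) in a two-sided z test of heso1-4/urt1-1 minus urt1-1 with Benjamini-Hochberg adjustment over all 127, 3 of them higher (2.36%) and 1 lower (0.787%) in heso1-4/urt1-1. With a correlation of 0.5 between the lines, 14 loci passed (11.0%), 11 higher (8.66%) and 3 lower (2.36%). At an unadjusted p under 0.05 there were 15 loci with independent errors and 26 with the correlation. The test with independent errors is the cautious one.

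The protein kinase gene AT3G24790 (chromosome 3, 9052869 to 9054591) went opposite ways in the 2 lines. Its small RNA was 0.98 ± 0.26 above Col-0 in urt1-1 and -1.78 ± 0.30 in heso1-4/urt1-1 on the log2 scale. The difference was -2.76 ± 0.40 (adjusted p = 5.4e-10), which puts heso1-4/urt1-1 at 0.148 of the urt1-1 level. The same gene stood at -1.68 ± 0.32 in GKheso1, a line whose name matches none of the labels and which is not shown to be heso1-4, and at -2.32 in rrp4-2/urt1-1/heso1-4. Its listing in urt1-1 does not reach an adjusted p of 0.01.

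The largest rise among the 4 was at a pair of long noncoding RNA genes that overlap by 621 bases on opposite strands. AT1G09797 (chromosome 1, 29427802 to 29428566) had 1.06 ± 0.21 in urt1-1 and 2.36 ± 0.20 in heso1-4/urt1-1, a difference of 1.299 ± 0.29 (adjusted p = 0.00041) or 2.46-fold. AT1G09793 (chromosome 1, 29427765 to 29428422) gave 1.05 and 2.35. The mean normalised counts of AT1G09797 and AT1G09793 were 348.7 and 348.4. Whether reads were counted by strand is not given in the sources used here, so the pair may be 1 signal counted under both names among the 4. The pair was higher still in rrp4-2/urt1-1/heso1-4, at 4.84.

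AT5G20700 (chromosome 5, 7005667 to 7007502), annotated as a senescence-associated gene of the DUF581 family, rose from 1.32 ± 0.17 in urt1-1 to 2.28 ± 0.17 in heso1-4/urt1-1. The difference was 0.97 ± 0.24 (adjusted p = 0.0023). It was 1.32 in urt1.2, another line with no matching label, and 3.76 in rrp4-2/urt1-1/heso1-4, and it was not listed in GKheso1.

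Another 10 loci passed with the correlation of 0.5 and not with independent errors. Higher in heso1-4/urt1-1 were AT3G19184, a gene for an AP2/B3-like transcription factor, by 1.02 ± 0.25, the noncoding AT1G10682 by 0.97 ± 0.25, and AT1G09855, an uncharacterised transcribed region, by 0.92 ± 0.25. The transposable elements AT4TE78690 and AT3TE47980 were higher by 1.13 ± 0.28 and 0.74 ± 0.24. DEG14, a gene for a trypsin family protein with a PDZ domain, was higher by 0.44 ± 0.15. The microRNA genes MIR397A and MIR169f complete the higher side. Lower were MCM5, which encodes a subunit of the replicative DNA helicase, by a difference of -0.86 ± 0.29, and AT3G23690. Their adjusted p with the correlation ranged from 0.0013 to 0.041.

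**Figure D2:**
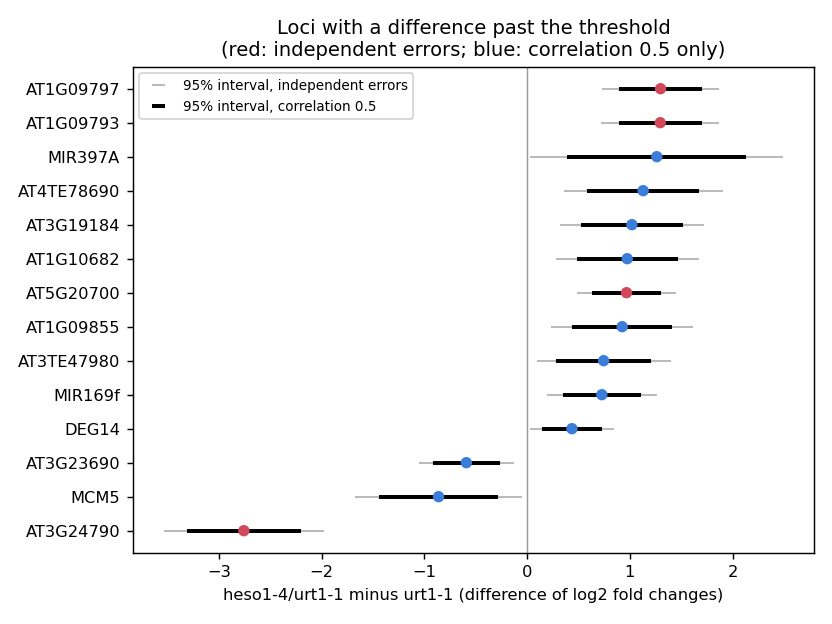
Difference of log2 fold changes, heso1-4/urt1-1 minus urt1-1 (x axis), for the 14 loci past the threshold with a correlation of 0.5, with 95% intervals for independent errors (thin) and for the correlation (thick). The red points are the 4 loci past the threshold with independent errors, and MIR397A has the widest interval, from 0.03 to 2.50 with independent errors.

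URT1 (chromosome 2, 18792864 to 18795904), the gene that both lines carry as a mutant, gave nearly the same small RNA value in both, -1.31 ± 0.27 in urt1-1 and -1.31 ± 0.28 in heso1-4/urt1-1. The 95% interval of the difference ran from -0.53 to 0.54 with the correlation. HESO1 (chromosome 2, 16575752 to 16579120) was listed in heso1-4/urt1-1 at 0.99 ± 0.26 and not in urt1-1. In GKheso1 HESO1 stood at 4.60, far above its value in the double mutant. Small RNA mapped to a gene checks a mutation less directly than its mRNA would.

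Copper deficiency raises a set of microRNAs through the transcription factor SPL7, which binds GTAC motifs. These microRNAs target mRNAs of copper proteins such as plantacyanin, laccases and copper/zinc superoxide dismutases. Of the 7 genes of this set, 5 were listed as higher than Col-0 in both lines and MIR398B and MIR398C in urt1-1 alone. Over all tested loci, 0.34% were listed as higher in heso1-4/urt1-1 and 0.32% in urt1-1. MIR408 (chromosome 2, 19319814 to 19320031), whose targets include the plantacyanin gene ARPN, had 1.52 ± 0.23 in urt1-1 and 2.03 ± 0.23 in heso1-4/urt1-1. MIR397A, whose microRNA targets laccase mRNAs, had 1.83 ± 0.45 and 3.09 ± 0.44, and its difference of 1.26 ± 0.44 passed with the correlation (adjusted p = 0.041) and not with independent errors (0.41). MIR397B, with the same seed, had nearly equal values, 1.94 ± 0.45 in urt1-1 and 1.93 ± 0.45 in heso1-4/urt1-1. MIR857 had 2.17 ± 0.41 and 1.75 ± 0.42, and MIR398A 1.31 ± 0.25 and 1.1995 ± 0.25. MIR408, MIR397B, MIR857 and MIR398A passed neither form of the test, and the difference between MIR397A and MIR397B was not tested.

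MIR408 lies on the opposite strand of AT2G47020, which encodes a peptide chain release factor and had nearly the same values, 1.49 and 2.01. MIR397A likewise overlaps ENT6, a nucleoside transporter gene listed at 2.16 ± 0.35 in heso1-4/urt1-1 alone. Reads of such pairs cannot be told apart here. MIR398B and MIR398C, whose mature 3p sequences are identical, had 1.38 ± 0.25 each in urt1-1. For a locus of that SE, the smallest change that would have been listed in heso1-4/urt1-1 was about 0.88, so a value up to that size was not detectable there. Of 12 copper protein genes, ARPN was listed at 1.77 ± 0.36 in urt1-1 alone, and the other 11 were listed in neither line. Over all tested loci, 0.58% were listed in heso1-4/urt1-1 and 0.431% in urt1-1.

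The 300-base windows at the annotated starts of MIR408 and MIR397A are shown because these genes had the largest differences of the copper set. Each runs from 250 bases before to 50 after the start in TAIR10.1, and GTAC, which reads the same on both strands, is in capitals. The MIR408 window is chr2:19319564-19319863 and the MIR397A window chr4:2625700-2625999, both on the plus strand.
MIR408: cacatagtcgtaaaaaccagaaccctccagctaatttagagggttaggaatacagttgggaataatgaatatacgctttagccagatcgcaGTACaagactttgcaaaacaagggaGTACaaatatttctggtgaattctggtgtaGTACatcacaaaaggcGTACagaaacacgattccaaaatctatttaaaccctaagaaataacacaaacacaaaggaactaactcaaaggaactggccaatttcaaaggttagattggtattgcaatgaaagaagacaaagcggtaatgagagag
MIR397A: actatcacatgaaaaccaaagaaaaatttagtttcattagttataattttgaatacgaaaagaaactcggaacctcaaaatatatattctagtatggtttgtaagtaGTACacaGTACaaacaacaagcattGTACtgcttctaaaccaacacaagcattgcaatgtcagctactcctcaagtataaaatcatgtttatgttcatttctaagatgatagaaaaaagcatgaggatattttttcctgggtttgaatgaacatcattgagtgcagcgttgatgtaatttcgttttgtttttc
GTAC occurred 4 times in the window of MIR408, 3 times in that of MIR397A, 4 times at MIR397B, 5 at MIR398B, 3 at MIR398C and not at all in the windows of MIR398A and MIR857. Of 37897 windows of the same length in the annotation, 39.7% held at least 1 match, 2.15% at least 3 and 0.491% at least 4. The annotated start of a microRNA gene can be that of its hairpin, so a window may not hold the promoter. MIR397B, with 4 matches, had a difference of -0.0094, and MIR397A, with 3, one of 1.26.

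MIR169d, MIR169f and MIR169g were listed as higher than Col-0 in both lines, and MIR169f passed the test of the difference with the correlation alone. miR169 targets mRNAs of NF-YA subunits of the CCAAT-binding complex. MIR169f (chromosome 3, 4805684 to 4805850) had 0.75 ± 0.19 in urt1-1 and 1.48 ± 0.19 in heso1-4/urt1-1, and its difference of 0.73 ± 0.19 passed with the correlation (adjusted p = 0.0026) and not with independent errors (0.12). MIR169d had 0.73 and 1.13 and MIR169g 0.72 and 1.12, and neither difference of 0.40 passed either form. Since these genes share their mature sequence, reads of that sequence cannot be assigned to 1 of them, and how such reads were counted is not given in the sources used here. MIR169e, listed in heso1-4/urt1-1 alone, had 1.28 ± 0.30.

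MIR5657 (chromosome 5, 9789582 to 9789666) had 1.33 ± 0.18 in urt1-1 and 1.82 ± 0.18 in heso1-4/urt1-1. It lies on the opposite strand within DEG14, which had 1.08 ± 0.15 and 1.51 ± 0.15. MIR837 had 2.48 ± 0.62 and 2.58 ± 0.62 at a mean normalised count of 10.3, the lowest of the 10 genes. All 10 microRNA genes were higher than Col-0 in both lines, beside 84 of all 127 loci. Their difference ran from -0.42 to 1.26 with a median of 0.40, beside a median of 0.08 over all 127 loci. The median of 0.40 falls between MIR169d and MIR169g, which share their mature sequence and passed neither form of the test. A difference between microRNA genes and other loci was not tested.

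**Figure D3:**
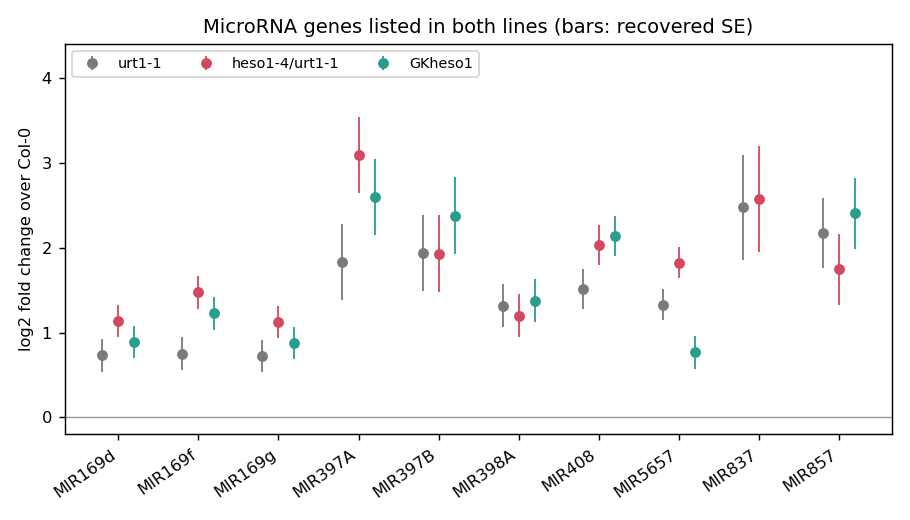
Log2 fold change over Col-0 (y axis) of the 10 microRNA genes listed in both lines, in urt1-1 (grey), heso1-4/urt1-1 (red) and GKheso1 (green), with recovered SE as bars. MIR397A and MIR169f, which passed the test of the difference with the correlation, are higher in heso1-4/urt1-1 than in urt1-1 by more than their SE. So are MIR408, MIR5657, MIR169d and MIR169g, which passed neither form. MIR397B and MIR398A overlap, and MIR837 was not listed in GKheso1.

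Of 4 auxin receptor genes, AFB2 and AFB3 were listed in both lines, beside 127 of the 14888 loci of the whole table. Neither gene passed the test of the difference. AFB2, AFB3, TIR1 and AFB1 are F-box proteins that bind auxin and mark Aux/IAA repressors for degradation, and siRNAs are known to arise from them after miR393 cleavage. AFB3 (chromosome 1, 4368760 to 4371298) had 1.41 ± 0.14 in urt1-1 and 1.08 ± 0.14 in heso1-4/urt1-1. AFB2 (chromosome 3, 9867652 to 9870782) had 1.46 ± 0.15 and 1.12 ± 0.16. Both differences were -0.33, with adjusted p of 0.65 and 0.68 with independent errors and of 0.13 and 0.17 with the correlation. With the correlation the 95% interval ran from -0.61 to -0.06 for AFB3 and from -0.64 to -0.03 for AFB2, before adjustment over the 127 loci.

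AT3G23690 (chromosome 3, 8528609 to 8531358), a basic helix-loop-helix gene with a miR393 site of 17 paired bases, had 1.55 ± 0.16 in urt1-1 and 0.96 ± 0.17 in heso1-4/urt1-1. Its difference of -0.59 ± 0.17 passed with the correlation (adjusted p = 0.0045) and not with independent errors (0.15). AT1G04977, a noncoding RNA antisense to AFB3 that overlaps it by 638 bases, had 1.37 ± 0.18 and 0.94 ± 0.18. Its reads cannot be told apart from those of AFB3. TIR1 and AFB1 were listed in neither line, although their sites pair with miR393 at 18 and 17 bases.

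Spliceosomal snRNA genes U6.5 and U6-29 were listed in both lines with close values, 0.88 and 0.99 for U6.5 and 0.73 and 0.90 for U6-29. Of 47 snRNA genes in the whole table, another 11 were listed in heso1-4/urt1-1 and not in urt1-1, all higher than Col-0. Beside them, 278 of 14888 loci of all types were so listed (153 higher and 125 lower). Of the 11 snRNA genes, 5 were also listed in the line urt1.2 and 0 in GKheso1, beside 33 and 72 of all 278 loci. U1.10 (chromosome 1, 4007237 to 4007396) had the highest value, 2.12 ± 0.25, against a limit of 0.89 in urt1-1. All 160 bases of U1.10 overlap another locus listed in heso1-4/urt1-1 alone, on the opposite strand, so their reads cannot be told apart here. The other U1 genes ranged from 1.06 at U1.4 to 1.28 at U1.5, and the 5 U6 genes from 0.89 at U6.6 to 0.90 at U6-26, against limits near 0.75. U1 and U6 genes are near-identical copies, so these are not independent loci. In rrp4-2/urt1-1/heso1-4 the same genes stood between 2.43 and 3.33. No tRNA, snoRNA or rRNA gene was listed in either line, of 216, 86 and 12 in the whole table.

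Loci listed in 1 line alone have no value in the other line. Each was set against the smallest change that its SE, taken from the line that lists it, would have let pass there. This limit holds only where the locus is not among the entries missing from the table. Of the 278 loci listed in heso1-4/urt1-1 alone, 27 lay beyond the limit by more than a 95% interval of a difference, 15 higher and 12 lower than Col-0. Of the 165 listed in urt1-1 alone, 4 did, 1 higher and 3 lower. Both counts rest on each locus's own value and SE in the line that lists it, so they do not show a difference between the lines. These are descriptions and no test was made.

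AT3G09960 (chromosome 3, 3061945 to 3063594), a gene for a calcineurin-like phosphoesterase, had the lowest protein-coding value, -5.53 ± 0.41 in heso1-4/urt1-1 against a limit of 1.46 in urt1-1. It stood at -5.21 in GKheso1 and at -0.99 in rrp4-2/urt1-1/heso1-4. FTSH7, a gene for a membrane-bound protease, had -3.34 ± 0.24 against a limit of 0.86, was not listed in GKheso1 and stood at -3.45 in rrp4-2/urt1-1/heso1-4. TBL35, of a family of cell wall acetyltransferases, had -3.13 ± 0.29 and was at -2.78 in GKheso1.

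On the higher side, AT4G05475, a leucine-rich repeat gene, had 2.72 ± 0.23 against a limit of 0.82 and 2.75 in GKheso1. The pentatricopeptide repeat gene AT1G64100, of a family known to give rise to phased siRNAs, had 2.50 ± 0.36 against a limit of 1.296. The transposable element AT2TE60325 had 5.63 ± 0.52 against a limit of 1.84 and 5.43 in GKheso1. Higher values without reaching beyond the limit by that margin came from AT5G42410, a SAUR-like gene, at 4.61 ± 0.88 and the zinc finger gene AT3G57480 at 4.21 ± 0.92. Among lower ones of the same kind were the peroxidase gene AT2G34060 at -3.69 ± 0.79 and MYB2, a stress-responsive transcription factor gene, at -3.16 ± 0.83.

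Of 157 microRNA genes in the whole table, 19 were listed in heso1-4/urt1-1 and not in urt1-1, 17 higher and 2 lower than Col-0. Over all types, 278 of the 14888 loci were so listed, 153 higher and 125 lower. Of the 19 genes, 10 were also listed in GKheso1, 1 in the line heso1.3 and 0 in urt1.2, beside 72, 14 and 33 of all 278. MIR171b and MIR171c, whose 3p microRNA targets mRNAs of GRAS family regulators, had 1.54 ± 0.19 and 1.58 ± 0.19, and MIR5012 had 1.97 ± 0.30. These 3 lay beyond the urt1-1 limits of 0.68, 0.66 and 1.06. MIR158a, MIR158b, MIR156h, MIR165a and MIR165b had values from 1.02 to 1.80 and lay less far beyond their limits. MIR5027 at -3.43 ± 0.82 and MIR402 at -1.11 ± 0.28 were the lower ones. In urt1-1 alone 5 microRNA genes were listed, all higher, beside 165 of all 14888 loci, 132 higher and 33 lower. These 5 were MIR398B, MIR398C, MIR831 at 1.29 ± 0.26, and MIR826a and MIR826b, which overlap on opposite strands, at 1.2002 and 1.21. MIR165a and MIR398B each overlap another locus listed in the same line on the opposite strand, by 111 and 116 bases.

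The shared seeds of the microRNAs listed in heso1-4/urt1-1 alone show how far these genes are independent. miR171b and miR171c have identical 3p sequences, as have miR165a and miR165b, and miR158a and miR158b share their seed.
ath-miR171b-3p: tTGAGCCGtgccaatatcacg
ath-miR171c-3p: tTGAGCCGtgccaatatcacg
ath-miR165a-3p: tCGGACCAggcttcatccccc
ath-miR165b: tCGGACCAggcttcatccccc
ath-miR158a-3p: tCCCAAATgtagacaaagca
ath-miR158b: cCCCAAATgtagacaaagca
MIR164a, at 0.80 ± 0.22, and its target NAC100, at 1.00 ± 0.28, were both listed as higher in heso1-4/urt1-1 alone. The NAC100 site at chr5:24701687-24701707, on the minus strand within coding sequence, pairs with ath-miR164a at 19 of 21 bases.
ath-miR164a: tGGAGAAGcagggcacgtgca
NAC100 site: TctACGTGCCCTGCTTCTCCA

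Transposable elements made up 67 of the loci listed in heso1-4/urt1-1 alone and 57 of those in urt1-1 alone, with different directions. In heso1-4/urt1-1 alone 14 were higher and 53 lower than Col-0, beside 153 and 125 over all 278 loci. In urt1-1 alone 42 were higher and 15 lower, beside 132 and 33 over all 165. The difference in direction was not tested, and 4 and 3 of these elements lay beyond the limit in the other line. The 52 elements listed in both lines were 26 higher and 26 lower, with a median difference of 0.08. Protein-coding genes numbered 87 higher and 47 lower in heso1-4/urt1-1 alone and 51 higher and 12 lower in urt1-1 alone. Elements have no position in the reference annotation used, and how reads with several matches were counted is not given in the sources used here.

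**Figure D4:**
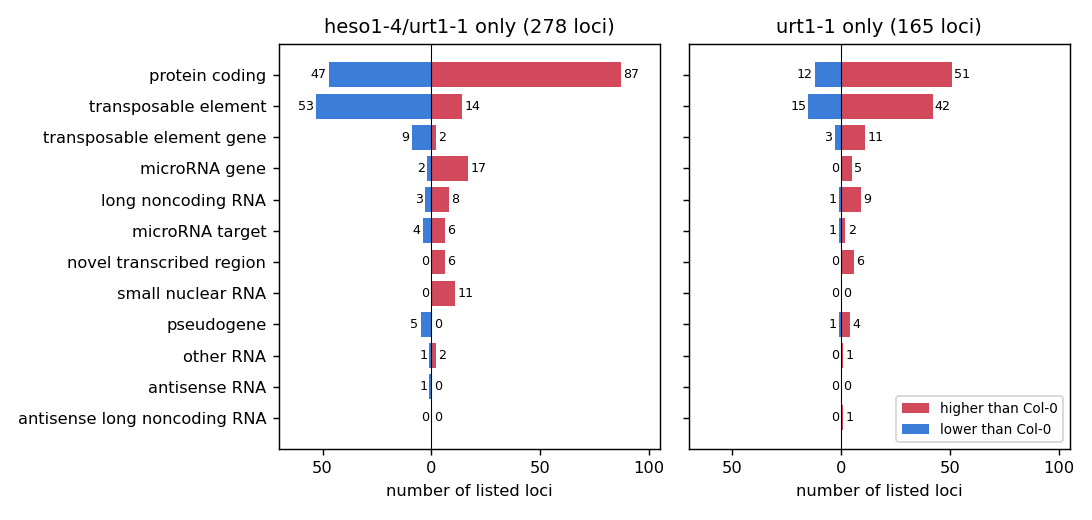
Number of loci (x axis) listed as higher (red, right) or lower (blue, left) than Col-0 by annotated locus type (y axis), for loci listed in heso1-4/urt1-1 alone (278) and in urt1-1 alone (165). The transposable elements are mostly lower in the first (53 of 67) and mostly higher in the second (42 of 57). The 11 snRNA genes are all in the first, and 5 of them were also listed in the line urt1.2.

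Among loci listed in urt1-1 alone, the element AT1TE65255 had -4.11 ± 0.32 against a limit of 1.11 in heso1-4/urt1-1 and -3.06 in the line heso1.3. GRF5, a growth-regulating transcription factor gene and member of a family targeted by miR396, had 2.81 ± 0.62 against a limit of 2.19. AGL85, of the MADS-box family, had 3.17 ± 0.83 and AT5G43550, an F-box associated gene, 4.35 ± 0.84. On the lower side were FLS1, the flavonol synthase gene, at -1.61 ± 0.34 and ATMPK13, a MAP kinase gene, at -1.81 ± 0.50. The 1 higher locus beyond the limit was AT4G30740, a QWRF motif gene, at 1.67 ± 0.22 against 0.77, which stood at -0.75 in rrp4-2/urt1-1/heso1-4.

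None of 19 RNA decay genes (exosome, SKI complex, decapping and exonuclease genes) was listed in either line, beside 0.58% and 0.431% of all tested loci, shares at which no member of so short a list need be listed. Of 22 genes of siRNA and microRNA machinery, AGO3 was listed, at 1.24 ± 0.35 in heso1-4/urt1-1 alone and just at the urt1-1 limit of 1.24. Of 8 TAS loci, which give rise to trans-acting siRNAs, TAS1B was listed at -0.79 ± 0.16 in heso1-4/urt1-1 alone and at -0.82 in GKheso1.

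Whether the double mutant equals the sum of single mutants was tested as double minus urt1-1 minus GKheso1, over the 49 loci listed in all 3 lines. GKheso1 stood in for a heso1 single mutant and is not shown to be heso1-4. Of the 49 loci, 37 departed from the sum (75.5%) with independent errors and 39 (79.6%) with a correlation of 0.5 between every pair of lines. At 36 of the 37 the double mutant was nearer to Col-0 than the sum was, and so it was at 48 of all 49. At 42 of the 49 it was closer to a single line than to the sum. Both single lines were higher than Col-0 at 34 loci and lower at 14, where their sum lies further out than either. The choice of loci listed in all 3 lines thus favours departures from the sum. For that reason the counts and adjusted p-values of this test do not show how the mutations combine. All 3 lines share the Col-0 libraries, and a locus enters only when all 3 pass against them, so a deviation of Col-0 at the locus moves the 3 values together and cannot be told apart from a shared effect.

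MIR408 had 2.03 in the double mutant, 1.52 in urt1-1 and 2.14 in GKheso1, and fell below the sum by a difference of -1.62 ± 0.41 (adjusted p = 0.00033). MIR397B, MIR857 and MIR398A departed in the same direction. MIR397A, at 3.09 beside 1.83 and 2.59, was -1.33 ± 0.77 from the sum and passed with the correlation (adjusted p = 0.044) and not with independent errors (0.11). The 3 MIR169 genes, MIR5657, AT3G19184, AT1G10682, AT1G09797 and AT1G09793 did not pass in either form, with departures from -0.27 to -0.50, and their intervals hold the sum. AT3G24790 had the same sign and nearly the same value in the double mutant and in GKheso1, -1.78 and -1.68, beside 0.98 in urt1-1.

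**Figure D5:**
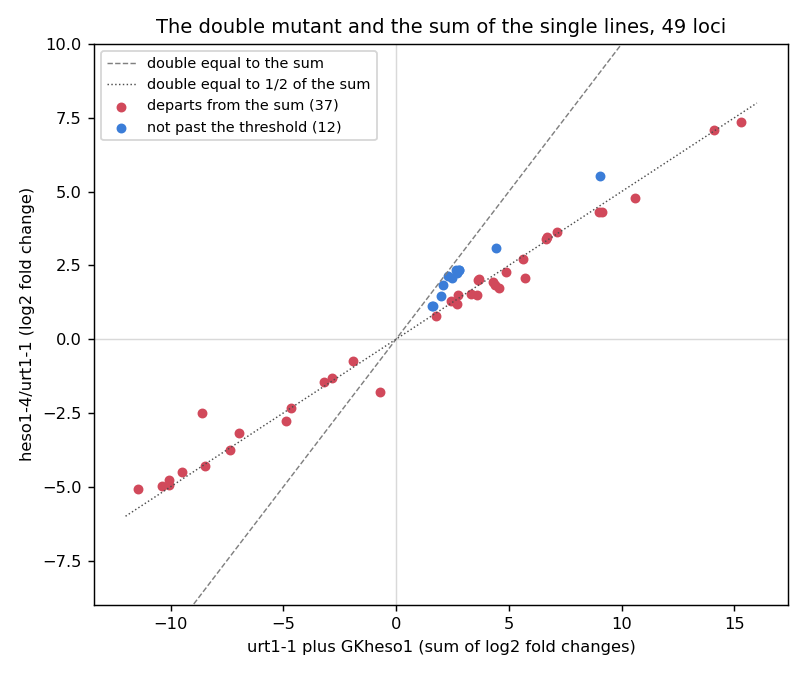
Log2 fold change in heso1-4/urt1-1 (y axis) against the sum of the log2 fold changes in urt1-1 and GKheso1 (x axis) for the 49 loci listed in all 3 lines. The 37 red points depart from the dashed line of the sum and lie mostly along the dotted line of 1/2 the sum, and the 12 blue points, with MIR397A and the MIR169 genes, do not pass.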

How the data were processed

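Inflorescence small RNA of 24 libraries in 8 genotype groups of 3 was measured by sequencing, per the labels. Per the submitters' processing notes, the authors used DESeq2, featureCounts (Subread 1.6.3), STAR 2.6.0a and cutadapt 2.4, with the TAIR10 build. The data were the authors' deposited table of 28194 entries in 13 mutant lines, with a mean normalised count per locus (a signal, made by the authors), a log2 fold change made by the authors, and the deposited p-value and adjusted p-value. Each line was mapped by name to the labels. The SE is the log2 fold change divided by the normal quantile of its p, which assumes a Wald test on unshrunken values. Differences were tested by z tests in Python 3.11.15 with scipy 1.17.1, checked on simulated data. Depth per library is unknown.

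The members and lists were chosen with earlier results of these data known. Named genes are all loci past the threshold, the largest differences, listed members of 7 lists (74 genes), and the largest values of each line alone; others named were chosen after their values were seen. Alternatives were a correlation of 0.5, a median SE per locus, a mean count of at least 20, centring, stricter thresholds and other limits.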

Additional observations from a re-analysis of the deposited data

Results flagged for a closer look

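Departures from the sum of single lines were marked by the test of double minus urt1-1 minus GKheso1 (z test, Benjamini-Hochberg over 49 loci). The test cannot decide whether the added mutation acts alike with and without urt1-1. The loci were chosen by listing in the same 3 lines, and GKheso1 is not shown to be heso1-4. Departures were found at 37 of 49 loci. Among named loci, the departure was -5.82 at the transposable element AT2TE65005, -4.83 at AT3TE44630 and -3.62 at AT1G26380, a berberine bridge enzyme-like gene. At microRNA genes it was -2.83 at MIR857, -2.39 at MIR397B, -1.62 at MIR408 (with -1.60 at the overlapping AT2G47020) and -1.49 at MIR398A. It was -1.08 at AT3G24790, -1.01 at the noncoding AT3G41761 and 3.80 at AT2TE49075, where all 3 lines were below Col-0. The shared Col-0 libraries and a shared effect cannot be told apart at these loci.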

How the results depend on the processing

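No paired analysis was possible because the table holds no values of single libraries, and for the same reason no replicate could be left out. With a correlation of 0.5 the count of higher loci went from 3 to 11 and that of lower loci from 1 to 3. Among the 91 loci listed at adjusted p under 0.01 in both lines, 0 were lower, since AT3G24790 does not reach that threshold in urt1-1. With no margin, the number of loci beyond the limit in the other line went from 27 to 265 (heso1-4/urt1-1 alone) and from 4 to 165 (urt1-1 alone). It went to 12 and 1 with the limit from 0.05 over the number of loci tested. The 165 was fixed in advance, since the largest deposited p listed was 0.00037 in urt1-1 and 0.000455 in heso1-4/urt1-1. The 265 only counts loci whose own deposited p was under the largest one listed in urt1-1. Of 41 named loci, 10 came past the threshold with the correlation and none lost it in the 4 alternatives run on them. URT1 changed sign when differences were centred on their median from 0.0013 to -0.077, within its SE of 0.39. Low counts and the partial listing limit which changes could be seen, and listing in both lines favours loci that differ little.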

Other observations

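Some genes with values of interest were chosen after these were seen. The iron-deficiency regulators bHLH38, bHLH39 and BHLH100 were listed as higher in heso1-4/urt1-1 alone, at 1.71 ± 0.34, 1.71 ± 0.32 and 1.38 ± 0.31, against urt1-1 limits of 1.21, 1.14 and 1.09. They stood at 1.64, 1.55 and 1.35 in GKheso1. The flavonoid genes FLS1 and TT4, which encode flavonol synthase and chalcone synthase, were listed as lower in urt1-1 alone, at -1.61 ± 0.34 and -1.08 ± 0.27, against heso1-4/urt1-1 limits of 1.21 and 0.96. None of these 5 genes lay beyond its limit by the margin used. A difference between the lines was not tested and is not shown.

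The mechanosensitive channel gene AT4G00290 had -2.59 ± 0.37 in heso1-4/urt1-1 against a urt1-1 limit of 1.32, with -3.24 in rrp4-2/urt1-1/heso1-4 and 1.964 in GKheso1. Small RNA of the ethylene regulator genes EBF1 and EBF2, which encode F-box proteins for EIN3, was above Col-0 in heso1-4/urt1-1. EBF1 had 1.67 in heso1-4/urt1-1 and 1.26 in urt1-1, a difference of 0.41 that did not pass either form of the test, and EBF2 had 0.74 ± 0.20 in heso1-4/urt1-1 alone. The brassinosteroid receptor gene BRI1 had 1.00 and 0.61, a difference of 0.39 with a 95% interval from -0.04 to 0.83 with independent errors.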
